A study of Mus musculus with 12 samples.

Results

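The genes described here encode the nuclear subunits of the 5 protein complexes of mitochondrial oxidative phosphorylation. They were chosen by symbol alone, as Nduf, Sdh, Uqcr, Cox and Atp5 subunit genes. Cox8b and symbols marked as pseudogenes (-ps) or antisense transcripts were left out. This gave 83 members of 55348 genes in the count tables. Cox6c2, annotated as a processed pseudogene, stayed among them. Complex I, which takes electrons from NADH, had 35 members, complex II (succinate dehydrogenase) had 4, complex III (cytochrome bc1) had 8, complex IV (cytochrome c oxidase, counted here with Ndufa4) had 19 and complex V (ATP synthase) had 17. Of these, 79 members passed the filter on low counts among 19052 genes tested. The 4 others were the tissue-restricted isoforms Cox6a2, Cox7b2 and Cox8c and the row named Atp5o, which held no count in any library.

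RNA was sequenced from whole organs of Corti of mice at postnatal day 21, with 3 libraries for each of 4 genotypes. The question put to these data was which molecular pathways change when clarin-1, clarin-2 or both are lost. Clrn1-/- mice carry a constitutive deletion of Clrn1 exon 4, made by crossing a floxed line with PGK-cre mice, Clrn2-/- mice carry the clarinet nonsense allele, and Clrn1-/-Clrn2-/- mice, called double mutants below, are the cross of both. Every allele acts in all cells, and the wild-type mice came from breedings of their own, so that breeding and genotype cannot be told apart in comparisons with wild-type. The sources do not say whether a library is 1 mouse or a pool, so p-values measure the spread between libraries, which may be technical.

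Each library held 30008679 to 41049302 counts on genes, and libraries of a genotype differed by 4.15 to 17.5 times the variance of counting alone. Clrn1 lay at 23.8 to 28.6 CPM (counts of a gene scaled to a common library size, with TMM factors) in wild-type and at 1.77 to 3.04 CPM in the libraries labelled Clrn1-/- or double mutant. Clrn2 lay at 1.89 to 3.24 CPM in wild-type and at 0.853 to 1.38 CPM in all 9 mutant libraries, those of Clrn1-/- included. All 10 hair cell markers and all 12 supporting cell markers were detected in every genotype. Markers of neurons and of myelinating glia were more abundant still, with a summed level of 13100 to 14500 CPM and 21900 to 23500 CPM in wild-type, although the modiolus had been dissected away.

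Complexes I to IV pass electrons from NADH and succinate to oxygen, complexes I, III and IV pump protons out of the mitochondrial matrix on the way, and complex V uses the returning protons to make ATP. Each of complexes I, III, IV and V joins nuclear subunits with a few encoded by the mitochondrial genome, which were not analysed here, while complex II is nuclear throughout. Hair cells and auditory neurons depend on this supply of ATP for ion transport and synaptic release, and inherited defects of the chain often include hearing loss. Within the complexes, the core subunits carry the redox centres or catalytic sites, and the small accessory subunits serve assembly and stability.

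Promoters of members are shown because most members moved together, and for the members on which the results below turn. A RefSeq promoter on GRCm38.p6 was found for 67 of the 83 members (72 promoters), and the 250 bases before the start site were searched on both strands. The 9 letters GCGCATGCG, a motif of the transcription factor NRF1, occurred in 8.33% of the member promoters and in 1.45% of all 32851 promoters of the same length. The ETS core CCGGAA, bound by GABPA among others, occurred in 27.8% of member promoters and 12% of all promoters, and its longer form CCGGAAGT, which holds the core, in 4.17% and 2.88%. The YY1 motif AAGATGGCG stood in 1.39% and 0.606%, the CRE TGACGTCA in 5.56% and 1.55%, and the TATA box TATAAA in 11.1% and 12.4%. Capitals mark a match to any of these, lines run 5′ to 3′ in the direction of the gene, and overlapping matches on both strands form 1 run of capitals. Cox6a1 (chr5:115348959-115349208, minus strand) holds an NRF1 match on each strand and an ETS core, Atp5g2 (chr15:102671048-102671297, minus strand) an NRF1 match on each strand, and Ndufv1 (chr19:4012756-4013005, minus strand) an ETS core. Ndufs5 (chr4:123718187-123718436, minus strand) and Cox7a1 (chr7:30183921-30184170, plus strand) hold none of the searched letters in this window.
Cox6a1: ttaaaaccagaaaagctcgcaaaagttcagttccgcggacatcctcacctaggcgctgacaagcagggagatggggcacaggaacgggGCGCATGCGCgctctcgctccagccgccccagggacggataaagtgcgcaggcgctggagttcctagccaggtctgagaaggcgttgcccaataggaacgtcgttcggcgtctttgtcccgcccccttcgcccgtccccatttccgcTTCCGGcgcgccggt
Atp5g2: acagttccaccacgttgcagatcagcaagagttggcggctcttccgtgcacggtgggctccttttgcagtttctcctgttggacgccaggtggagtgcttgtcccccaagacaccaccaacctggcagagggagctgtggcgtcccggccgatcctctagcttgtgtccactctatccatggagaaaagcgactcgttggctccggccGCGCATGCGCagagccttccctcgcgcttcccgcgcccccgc
Ndufv1: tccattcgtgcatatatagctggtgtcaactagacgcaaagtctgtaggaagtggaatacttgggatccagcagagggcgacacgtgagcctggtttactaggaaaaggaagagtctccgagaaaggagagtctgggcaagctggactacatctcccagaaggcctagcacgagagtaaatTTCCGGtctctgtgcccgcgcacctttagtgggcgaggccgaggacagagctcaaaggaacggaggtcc
Ndufs5: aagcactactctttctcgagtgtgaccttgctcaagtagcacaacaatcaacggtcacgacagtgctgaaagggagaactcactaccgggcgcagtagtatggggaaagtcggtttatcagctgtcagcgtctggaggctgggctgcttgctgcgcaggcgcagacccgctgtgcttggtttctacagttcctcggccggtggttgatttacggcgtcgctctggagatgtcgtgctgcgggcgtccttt
Cox7a1: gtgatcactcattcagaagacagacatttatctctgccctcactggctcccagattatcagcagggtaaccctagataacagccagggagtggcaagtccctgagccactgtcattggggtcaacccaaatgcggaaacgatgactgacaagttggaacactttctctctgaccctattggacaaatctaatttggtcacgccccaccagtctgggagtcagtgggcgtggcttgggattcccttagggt
Against wild-type, 5 of 6 tested members with an NRF1 match were lower in Clrn1-/-, 3 in Clrn2-/- and 4 in double mutants (medians of -0.45, -0.21 and -0.17), beside 42, 12 and 38 of 59 without (-0.24, -0.06 and -0.18). For the ETS core, 13 of 19 members with it were lower in Clrn1-/-, 3 in Clrn2-/- and 13 in double mutants (-0.21, -0.05 and -0.18), beside 34, 12 and 29 of 46 without (-0.27, -0.09 and -0.19). The TATA box members had 6, 1 and 4 of 6 lower (-0.31, -0.11 and -0.16), those with CRE 2, 2 and 4 of 4 (-0.21, -0.11 and -0.29), those with the longer ETS form 2, 0 and 1 of 3 (-0.23, -0.02 and -0.10), and the YY1 member was lower in Clrn1-/- alone (-0.21, -0.02 and -0.12). No test was made of these differences. These are descriptions of letters in a window and not of binding.

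Most subunit genes had less RNA in Clrn1-/- and in double mutant organs of Corti, and fewer of them had less in Clrn2-/-. In Clrn1-/- against wild-type, 58 of the 79 members were lower and 0 were higher (edgeR's quasi-likelihood test, Benjamini-Hochberg adjusted p of at most 0.05), where 13.3% of all genes tested were lower and 13.6% higher. In Clrn2-/-, 16 were lower and 0 higher, against 7.07% and 7.14% of all genes. In double mutants, 51 were lower and 1 was higher, against 17.9% and 19.1% of all genes. The 3 comparisons share the wild-type libraries.

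The changes were small. The median log2 fold change of the members was -0.24 (-15.3%) in Clrn1-/-, -0.07 (-4.5%) in Clrn2-/- and -0.19 (-12.5%) in double mutants, beside -0.00, -0.00 and 0.00 over all genes tested. With the 1.5-fold minimum of the study, 1 member passed in Clrn1-/- (Ndufs5), 0 in Clrn2-/- and 1 in double mutants (Cox7a1), where 7.22%, 2.66% and 9.90% of all genes passed in either direction. All 3 libraries of a mutant lay below all 3 of wild-type for 62 members in Clrn1-/- (19.8% of all genes), 29 in Clrn2-/- (14.4%) and 58 in double mutants (23.2%). The count in Clrn2-/- rested on single libraries, with 5 members lower without Clrn2-/- replicate 3, 8 without wild-type replicate 3 and 9 without wild-type replicate 2. It was 10 when the 2 genotypes were fitted alone. In bulk RNA, fewer cells of a type and less RNA per cell cannot be told apart.

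**Figure D1:**
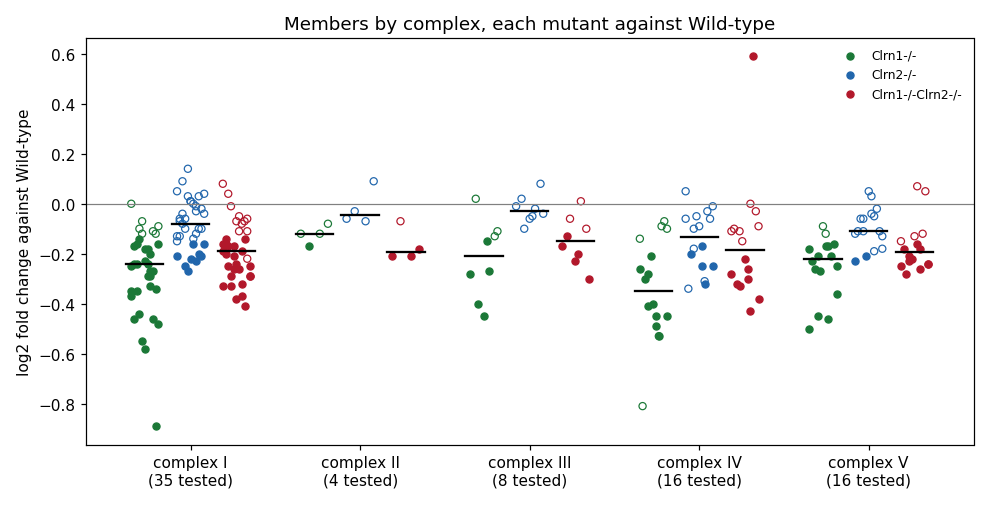
Fitted log2 fold change of each of the 79 members tested against wild-type (vertical axis), by complex (horizontal axis) and mutant (colour). Filled points passed an adjusted p of at most 0.05, open points did not, and black bars are medians; nearly all points lie below 0 in Clrn1-/- and double mutants, with Cox7a1 at 0.59 as the 1 filled point above.

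The summed level of the 83 members also placed Clrn1-/- and double mutants below wild-type, without ordering these mutants between themselves. It was 11830, 11940 and 12870 CPM in wild-type, 10330, 10170 and 10870 CPM in Clrn1-/-, 12020, 11560 and 11180 CPM in Clrn2-/- and 10350, 10460 and 10660 CPM in double mutant libraries. The libraries of Clrn1-/- and of double mutants were all below those of wild-type, and those of Clrn2-/- overlapped with wild-type. The means were 12210 ± 572 (SD, n = 3), 10460 ± 371, 11580 ± 424 and 10490 ± 155 CPM, so that Clrn1-/- held 85.6%, Clrn2-/- 94.8% and double mutants 85.9% of the wild-type level. By this sum, which abundant members dominate, complex IV stood at 79.7%, 91.7% and 83.4% of its wild-type level in Clrn1-/-, Clrn2-/- and double mutants, and complex II stood at 92.2%, 97.4% and 88.0%. For the other complexes the shares were 84.8%, 95.1% and 86.5% (I), 88.7%, 98.6% and 87.7% (III) and 87.3%, 94.9% and 85.9% (V), in the same order of genotypes.

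**Figure D2:**
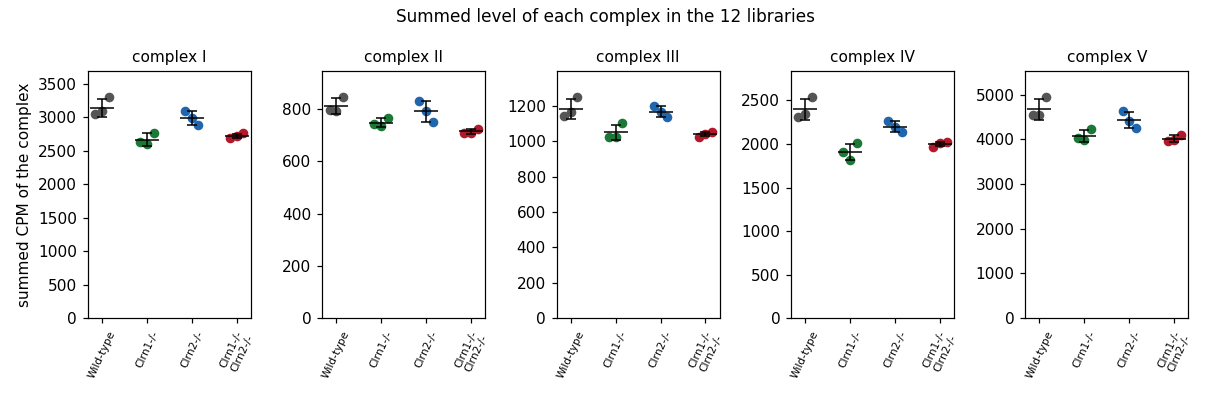
Summed CPM of the members of each complex (vertical axes, from 0) in the 12 libraries by genotype; points are libraries, bars the mean and SD of 3. In Clrn1-/- and double mutants every library lies below wild-type in all 5 complexes, and the libraries of double mutants lie closest together.

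Per length of transcript, the most abundant members in wild-type were Atp5b (763 CPM per kilobase), Cox4i1 (620), Ndufa4 (521), Atp5a1 (450) and Atp5g3 (411). The median over members tested was 91.7 CPM per kilobase in complex I, 96.2 in complex II, 137 in complex III, 182 in complex IV and 201 in complex V. The lowest of those tested were Cox4i2 at 2.86, Cox6c2, annotated as a processed pseudogene, at 3.37 and Cox7a1 at 8.83 CPM per kilobase.

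In complex I, 28 of 35 members were lower in Clrn1-/-, 9 in Clrn2-/- and 24 in double mutants, with medians of -0.24, -0.08 and -0.19. Ndufv1, which binds NADH and the flavin, lay at 184, 195 and 216 CPM in wild-type, 176, 193 and 196 in Clrn1-/-, 227, 216 and 210 in Clrn2-/- and 170, 167 and 176 in double mutants. Its double mutant libraries were at or below all others, and its Clrn1-/- and Clrn2-/- libraries overlapped with wild-type. The log2 fold change was -0.21 (SE 0.057, adjusted p = 0.00789) in double mutants, beside -0.07 (SE 0.057, adjusted p = 0.402) in Clrn1-/- and 0.14 (SE 0.057, adjusted p = 0.130) in Clrn2-/-, which passed the test on leaving out wild-type replicate 3 (adjusted p = 0.0171). The Clrn2-/- value also passed with library size alone (0.17, adjusted p = 0.0315). Ndufs1, the largest iron-sulfur subunit of the same module, lay at 217, 217 and 243 CPM in wild-type, 209, 209 and 214 in Clrn1-/-, 222, 214 and 214 in Clrn2-/- and 179, 185 and 189 in double mutants. Again the double mutant libraries were the lowest 3 of the 12, with fold changes of -0.29 (SE 0.046, adjusted p = 1.1e-04) against wild-type and -0.19 (SE 0.046, adjusted p = 0.00473) against Clrn1-/-. In Clrn1-/- itself the value was -0.10 (SE 0.046, adjusted p = 0.122).

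Ndufv2, an iron-sulfur subunit beside Ndufv1, lay at 183, 182 and 189 CPM in wild-type, 139, 141 and 155 in Clrn1-/-, 167, 161 and 153 in Clrn2-/- and 141, 148 and 153 in double mutants. All mutant libraries were below wild-type. Its log2 fold changes were -0.35 (SE 0.049, adjusted p = 8.6e-05), -0.21 (SE 0.049, adjusted p = 0.00985) and -0.33 (SE 0.049, adjusted p = 6.7e-05) in Clrn1-/-, Clrn2-/- and double mutants, and the Clrn2-/- call was lost on leaving out Clrn2-/- replicate 3 (adjusted p = 0.0590).

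Among the accessory subunits of complex I, Ndufb8 and Ndufa5 had the lowest fold changes in double mutants. Ndufb8 lay at 66.2, 65.5 and 69.5 CPM in wild-type, 44.5, 46.3 and 55.1 in Clrn1-/-, 58.4, 57.4 and 59.9 in Clrn2-/- and 51.8, 49.3 and 50.0 in double mutants. Wild-type libraries were above all others. Its fold changes were -0.46 (SE 0.063, adjusted p = 6.2e-05), -0.20 (SE 0.062, adjusted p = 0.0466) and -0.41 (SE 0.063, adjusted p = 7.5e-05) in Clrn1-/-, Clrn2-/- and double mutants, and the Clrn2-/- call was lost on leaving out any library other than Clrn1-/- replicate 1 or 3 (adjusted p = 0.0562 to 0.133), with library size alone (0.0839), limma-voom with the FPKM filter (0.0571) or unstranded counts (0.0541). Ndufa5 lay at 55.4, 58.7 and 62.6 CPM in wild-type, 37.9, 37.4 and 43.0 in Clrn1-/-, 50.8, 51.7 and 49.1 in Clrn2-/- and 44.6, 46.5 and 44.6 in double mutants. The 4 genotypes did not overlap, with Clrn1-/- lowest and double mutants between Clrn1-/- and Clrn2-/-. Log2 fold changes were -0.58 (SE 0.058, adjusted p = 3.3e-06), -0.22 (SE 0.057, adjusted p = 0.0169) and -0.38 (SE 0.058, adjusted p = 7.6e-05) in the same order, and the Clrn2-/- call was lost on leaving out wild-type replicate 3 (adjusted p = 0.0576) or Clrn2-/- replicate 3 (0.0797). Ndufa1, a short membrane subunit with the highest fold change of complex I in double mutants, lay at 34.6, 39.6 and 41.0 CPM in wild-type, 31.1, 30.3 and 35.4 in Clrn1-/-, 36.6, 36.2 and 32.4 in Clrn2-/- and 40.0, 40.2 and 41.5 in double mutants. It was lower in Clrn1-/-, at -0.25 (SE 0.073, adjusted p = 0.0174), with 1 Clrn1-/- library inside the wild-type range, and at 0.08 (SE 0.072, adjusted p = 0.432) in double mutants. The Clrn1-/- call was lost on leaving out wild-type replicate 2 or 3 or Clrn1-/- replicate 1 or 2 (adjusted p = 0.0556 to 0.0942), and with the trend on transcript length removed the value was -0.12 (adjusted p = 0.194).

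Ndufs5, another accessory subunit of complex I on chromosome 4, had the largest fitted change of any member called, and it depended on a pseudogene copy. It lay at 46.1, 44.3 and 48.7 CPM in wild-type, 31.1, 23.8 and 20.5 in Clrn1-/-, 46.7, 47.4 and 43.2 in Clrn2-/- and 40.4, 39.3 and 39.6 in double mutants. The Clrn1-/- libraries were the lowest 3 of the 12. The fold change was -0.89 (SE 0.100, adjusted p = 1.1e-05) in Clrn1-/-, -0.02 (SE 0.097, adjusted p = 0.926) in Clrn2-/- and -0.22 (SE 0.098, adjusted p = 0.0873) in double mutants, which passed on leaving out Clrn1-/- replicate 1 (adjusted p = 0.00677) or replicate 3 (0.0275). The double mutant value also passed with 2 genotypes alone (0.00337) or without the filter on low counts (0.00116). The row of its pseudogene Ndufs5-ps moved the other way, with 9.27, 9.06 and 10.3 CPM in wild-type, 18.7, 26.5 and 30.8 CPM in Clrn1-/-, 10.7, 10.3 and 8.85 CPM in Clrn2-/- and 8.72, 9.74 and 9.12 CPM in double mutants, a log2 fold change of 1.41 (SE 0.137, adjusted p = 2.2e-06) in Clrn1-/-. In each Clrn1-/- library a lower Ndufs5 value went with a higher Ndufs5-ps value, and Ndufs5-ps held 37.6% to 60.0% of both there, beside 16.7% to 19.9% in the other genotypes. Counted together, the pair lay at 55.4, 53.4 and 59.0 CPM in wild-type, 49.8, 50.3 and 51.3 CPM in Clrn1-/-, 57.5, 57.7 and 52.0 CPM in Clrn2-/- and 49.1, 49.1 and 48.7 CPM in double mutants. Its fold change was then -0.15 (SE 0.049, adjusted p = 0.0362) in Clrn1-/- and -0.19 (SE 0.049, adjusted p = 0.00591) in double mutants, a count chosen after the values were seen. The share of reads that belongs to each row is uncertain for this reason.

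**Figure D3:**
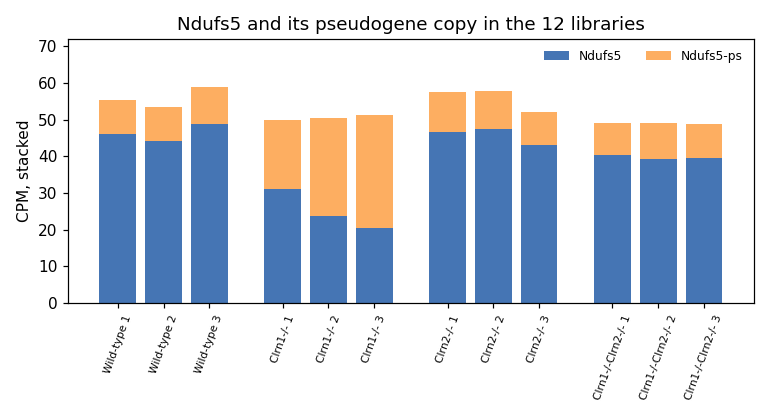
CPM of Ndufs5 and of Ndufs5-ps stacked (vertical axis, from 0) in each of the 12 libraries (horizontal axis). The Ndufs5 part is shortest in the 3 Clrn1-/- libraries (20.5 to 31.1 CPM), while the full bars there stand at 49.8 to 51.3 CPM, close to those of double mutants.

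Of the 4 members of complex II, 1 was lower in Clrn1-/- and 3 were lower in double mutants. Sdha, the flavoprotein that oxidizes succinate, lay at 468, 466 and 491 CPM in wild-type, 431, 436 and 447 in Clrn1-/-, 486, 453 and 427 in Clrn2-/- and 410, 408 and 415 in double mutants. Sdhb, its iron-sulfur partner, lay at 113, 116 and 123 CPM in wild-type, 106, 106 and 112 in Clrn1-/-, 116, 110 and 109 in Clrn2-/- and 100, 99.4 and 105 in double mutants. For both, the double mutant libraries were the lowest 3 of the 12. Their fold changes in double mutants were -0.21 (SE 0.048, adjusted p = 0.00257) for Sdha and -0.21 (SE 0.044, adjusted p = 0.00141) for Sdhb. In Clrn1-/- they were -0.12 (SE 0.047, adjusted p = 0.0824) and -0.12 (SE 0.044, adjusted p = 0.0567). The Clrn1-/- value of Sdha passed the test on leaving out Clrn2-/- replicate 1 or 3 (adjusted p = 0.0234 and 0.0469), and that of Sdhb on leaving out wild-type replicate 1, Clrn1-/- replicate 3 or Clrn2-/- replicate 1 (0.0351 to 0.0469). Sdha also passed there with DESeq2 (0.0487), upper quartile scaling (0.0417), limma-voom with the FPKM filter (0.0456) or the GC trend removed (0.0463). Sdhb also passed with upper quartile scaling (0.0294). Sdhc, a membrane anchor, lay at 108, 106 and 114 CPM in wild-type, 98.9, 92.5 and 101 in Clrn1-/-, 107, 109 and 105 in Clrn2-/- and 103, 104 and 105 in double mutants. It was the member lower in Clrn1-/-, with no overlap with wild-type and a fold change of -0.17 (SE 0.043, adjusted p = 0.00908), a call lost on leaving out Clrn1-/- replicate 2 (adjusted p = 0.0651). In double mutants its value was -0.07 (SE 0.043, adjusted p = 0.204). None of the 4 was called in Clrn2-/-.

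In complex III, 5 of 8 members were lower in Clrn1-/-, 0 in Clrn2-/- and 5 in double mutants. Uqcrc1, a core protein, lay at 316, 307 and 331 CPM in wild-type, 283, 294 and 306 in Clrn1-/-, 331, 302 and 296 in Clrn2-/- and 259, 256 and 260 in double mutants. The double mutant libraries were again the lowest 3 of the 12. Its fold change was -0.30 (SE 0.049, adjusted p = 1.4e-04) in double mutants and -0.11 (SE 0.049, adjusted p = 0.0992) in Clrn1-/-, and the difference between these mutants was -0.19 (SE 0.049, adjusted p = 0.00777). The Clrn1-/- value passed the test on leaving out Clrn2-/- replicate 1 (adjusted p = 0.0352). Uqcrfs1, the Rieske iron-sulfur protein, lay at 128, 129 and 146 CPM in wild-type, 136, 133 and 139 in Clrn1-/-, 139, 138 and 132 in Clrn2-/- and 121, 124 and 123 in double mutants. Only the double mutant libraries were below wild-type, with a fold change of -0.13 (SE 0.048, adjusted p = 0.0438), beside 0.02 (SE 0.048, adjusted p = 0.853) in Clrn1-/-. That call was lost on leaving out wild-type replicate 3 (adjusted p = 0.173) or any double mutant library (0.0695 to 0.0981), with library size alone (-0.09, 0.114) and with 2 genotypes alone (0.0540).

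Uqcrq and Uqcr11, small accessory subunits of complex III, had their lowest means in Clrn1-/-. Uqcrq lay at 129, 132 and 138 CPM in wild-type, 93.0, 92.2 and 107 in Clrn1-/-, 128, 127 and 129 in Clrn2-/- and 111, 117 and 111 in double mutants. Clrn1-/- was lowest without overlap, and double mutants lay between it and the other genotypes. Against wild-type, it stood at -0.45 (SE 0.053, adjusted p = 1.6e-05) in Clrn1-/- and -0.23 (SE 0.052, adjusted p = 0.00217) in double mutants, and the difference between them was 0.21 (SE 0.053, adjusted p = 0.00568). Uqcr11 lay at 56.9, 59.2 and 59.3 CPM in wild-type, 46.4, 46.7 and 52.5 in Clrn1-/-, 57.0, 58.8 and 56.8 in Clrn2-/- and 56.8, 60.2 and 59.1 in double mutants. The Clrn1-/- libraries were below all others, which overlapped with each other. The fold change was -0.27 (SE 0.050, adjusted p = 8.9e-04) in Clrn1-/- and 0.01 (SE 0.049, adjusted p = 0.941) in double mutants.

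Complex IV had 10 of 16 tested members lower in Clrn1-/-, 5 in Clrn2-/- and 8 in double mutants, where Cox7a1 was higher. The medians of its members were -0.35, -0.13 and -0.19, the last of which is also the median of complexes I, II and V in double mutants. Cox4i1, a large subunit that regulates the enzyme, lay at 457, 458 and 489 CPM in wild-type, 379, 378 and 415 in Clrn1-/-, 475, 442 and 435 in Clrn2-/- and 383, 380 and 390 in double mutants. Clrn1-/- and double mutant libraries were below wild-type and overlapped with each other. The fold changes were -0.26 (SE 0.049, adjusted p = 0.00108) and -0.28 (SE 0.050, adjusted p = 2.8e-04). Cox5a, on the matrix side, lay at 250, 250 and 286 CPM in wild-type, 217, 205 and 225 in Clrn1-/-, 255, 248 and 232 in Clrn2-/- and 201, 210 and 213 in double mutants. The pattern was the same, with -0.28 (SE 0.057, adjusted p = 0.00180) in Clrn1-/- and -0.33 (SE 0.057, adjusted p = 2.4e-04) in double mutants. Cox5b, its zinc-binding neighbour, lay at 146, 152 and 148 CPM in wild-type, 109, 105 and 112 in Clrn1-/-, 133, 124 and 116 in Clrn2-/- and 117, 112 and 113 in double mutants. All 9 mutant libraries were below wild-type. Its log2 fold changes were -0.45 (SE 0.047, adjusted p = 5.6e-06), -0.25 (SE 0.047, adjusted p = 0.00187) and -0.38 (SE 0.047, adjusted p = 1.2e-05) in Clrn1-/-, Clrn2-/- and double mutants. Cox7b, which had the lowest value of all members in double mutants, lay at 181, 186 and 208 CPM in wild-type, 135, 123 and 141 in Clrn1-/-, 157, 151 and 154 in Clrn2-/- and 132, 151 and 143 in double mutants. Here too the wild-type libraries were above all 9 others, and the log2 fold changes were -0.53 (SE 0.061, adjusted p = 1.4e-05), -0.32 (SE 0.061, adjusted p = 0.00240) and -0.43 (SE 0.061, adjusted p = 3.9e-05).

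Several subunits of complex IV have tissue isoforms, and per length Cox4i1 stood at 620 and its isoform Cox4i2 at 2.86 CPM per kilobase in wild-type. Cox6a1 lay at 200, 192 and 202 CPM in wild-type, 140, 136 and 146 in Clrn1-/-, 178, 162 and 160 in Clrn2-/- and 161, 161 and 158 in double mutants. All mutant libraries were below wild-type, with Clrn1-/- lowest. This gave log2 fold changes of -0.49 (SE 0.046, adjusted p = 1.6e-06), -0.25 (SE 0.046, adjusted p = 0.00185) and -0.30 (SE 0.046, adjusted p = 7.1e-05) in Clrn1-/-, Clrn2-/- and double mutants. Cox6a2, the form of heart and skeletal muscle, reached at most 0.337 CPM. Cox6b1 lay at 153, 160 and 161 CPM in wild-type, 130, 121 and 134 in Clrn1-/-, 149, 136 and 129 in Clrn2-/- and 128, 123 and 130 in double mutants. Wild-type was above the 9 mutant libraries. Its log2 values against wild-type were -0.30 (SE 0.052, adjusted p = 5.8e-04), -0.20 (SE 0.052, adjusted p = 0.0197) and -0.32 (SE 0.052, adjusted p = 1.7e-04), and the Clrn2-/- call was lost on leaving out wild-type replicate 2 (adjusted p = 0.0588), Clrn2-/- replicate 2 (0.0712) or Clrn2-/- replicate 3 (0.105) and with 2 genotypes alone (0.0613). Cox6b2, known from testis, lay at 5.31, 6.54 and 4.12 CPM in wild-type, 4.96, 5.09 and 5.17 in Clrn1-/-, 4.84, 5.51 and 4.91 in Clrn2-/- and 5.90, 4.34 and 5.44 in double mutants. Its genotypes overlapped, with -0.03 (SE 0.149, adjusted p = 0.914) in double mutants.

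Cox7a1, the form of heart, muscle and brown fat, was the 1 member higher in double mutants. It lay at 3.82, 3.59 and 3.01 CPM in wild-type, 3.00, 2.92 and 3.84 in Clrn1-/-, 3.28, 3.24 and 3.65 in Clrn2-/- and 6.09, 4.93 and 4.72 in double mutants. Its double mutant libraries were above the 9 others, which overlapped. Log2 fold changes were 0.59 (SE 0.142, adjusted p = 0.00365) in double mutants, -0.09 (SE 0.147, adjusted p = 0.711) in Clrn1-/- and -0.03 (SE 0.147, adjusted p = 0.923) in Clrn2-/-. The markers of skeletal muscle summed to 544 to 629 CPM in wild-type and 387 to 412 CPM in double mutants, with 3 of 11 tested lower and 0 higher. That list holds Pvalb, whose protein the paper stained in auditory neurons and inner hair cells, so the sum does not measure muscle alone. The 6 cardiac or slow muscle markers summed to 2.58 to 2.81 CPM in wild-type and 3.24 to 3.66 CPM in double mutants, and the 4 brown adipocyte markers to 0.986 to 1.83 CPM and 1.60 to 1.87 CPM, with Elovl3 at 0 in all 4 genotypes. Their part in the result was not tested.

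Cox7a2, the common form, lay at 100, 106 and 119 CPM in wild-type, 94.3, 88.8 and 98.0 in Clrn1-/-, 109, 105 and 99.6 in Clrn2-/- and 94.9, 95.7 and 102 in double mutants. The Clrn1-/- libraries were below wild-type and those of double mutants touched its range. It was lower in Clrn1-/-, at -0.21 (SE 0.059, adjusted p = 0.0143), a call lost on leaving out wild-type replicate 3 (adjusted p = 0.0654) or Clrn1-/- replicate 2 (0.0824) and with the length trend removed (-0.11, adjusted p = 0.129), and the value in double mutants was -0.15 (SE 0.059, adjusted p = 0.0501). That value passed the test on leaving out wild-type replicate 1, Clrn1-/- replicate 2 or 3, Clrn2-/- replicate 1 or 3 or double mutant replicate 3 (adjusted p = 0.0105 to 0.0469). It also passed with DESeq2 (0.0389), upper quartile scaling (0.0192), no filter on low counts (0.00744), the length trend removed (-0.17, 0.0140) or the GC trend removed (0.0366). Cox7a2l, which serves in supercomplexes, lay at 137, 130 and 144 CPM in wild-type, 120, 120 and 134 in Clrn1-/-, 145, 137 and 142 in Clrn2-/- and 128, 124 and 127 in double mutants. Its values were -0.14 (SE 0.049, adjusted p = 0.0519) in Clrn1-/- (adjusted p = 0.0281 with the replicate number as a block) and -0.11 (SE 0.049, adjusted p = 0.0821) in double mutants. The first passed the test on leaving out wild-type replicate 2, Clrn1-/- replicate 3 or Clrn2-/- replicate 1 (adjusted p = 0.0106 to 0.0407), and the second on leaving out wild-type replicate 2 or Clrn1-/- replicate 3 (0.0238 and 0.0343). The first also passed with DESeq2 (0.0440), upper quartile scaling (0.0307), no filter on low counts (0.0388) or the GC trend removed (0.0379). The second also passed with upper quartile scaling (0.0286), 2 genotypes alone (0.0436) or the length trend removed (0.0322). Cox4i2, known from lung and low oxygen, lay at 2.05, 2.14 and 2.07 CPM in wild-type, 1.55, 1.63 and 1.17 in Clrn1-/-, 1.37, 1.96 and 1.74 in Clrn2-/- and 2.42, 2.29 and 1.60 in double mutants. Clrn1-/- and Clrn2-/- libraries were below wild-type and those of double mutants overlapped with it, but the Clrn1-/- value of -0.53 (SE 0.196, adjusted p = 0.0575) passed the test, among the alternatives tried, only with the replicate block (adjusted p = 0.0487), without Clrn2-/- replicate 1 or double mutant replicate 3 (0.0473 and 0.0431) and without the filter on low counts.

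Cox8a, the common form of its subunit, was among the 10 members lower in none of the mutants. It lay at 175, 180 and 187 CPM in wild-type, 174, 157 and 176 in Clrn1-/-, 180, 179 and 181 in Clrn2-/- and 165, 175 and 171 in double mutants. The mutants overlapped with wild-type, with -0.10 (SE 0.046, adjusted p = 0.131), -0.01 (SE 0.046, adjusted p = 0.931) and -0.09 (SE 0.046, adjusted p = 0.151) in Clrn1-/-, Clrn2-/- and double mutants. With the length trend removed, the double mutant value was -0.11 and passed the test (adjusted p = 0.0288). The others of this kind were Cox4i2, Cox6b2, Cox6c2, Cox7a1, Cox7a2l, Atp5e, Atp5g3, Ndufb5 and Uqcrh. Cox7b2 and Cox8c, forms of testis, reached at most 0.149 CPM and 0.0274 CPM. Ndufa4, which copurified with complex I and belongs to complex IV, lay at 260, 268 and 302 CPM in wild-type, 202, 191 and 213 in Clrn1-/-, 241, 251 and 245 in Clrn2-/- and 224, 239 and 232 in double mutants. Wild-type was above all mutants, Clrn1-/- was lowest, and the fold changes were -0.45 (SE 0.055, adjusted p = 2.1e-05), -0.17 (SE 0.055, adjusted p = 0.0464) and -0.26 (SE 0.055, adjusted p = 0.00155). The Clrn2-/- call of Ndufa4 was lost on leaving out any 1 of 10 libraries, all but wild-type replicate 1 and Clrn1-/- replicate 3 (adjusted p = 0.0540 to 0.174), and with library size alone (0.0715), limma-voom with the FPKM filter (0.0505), 2 genotypes alone (0.0995) or unstranded counts (0.0545).

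**Figure D4:**
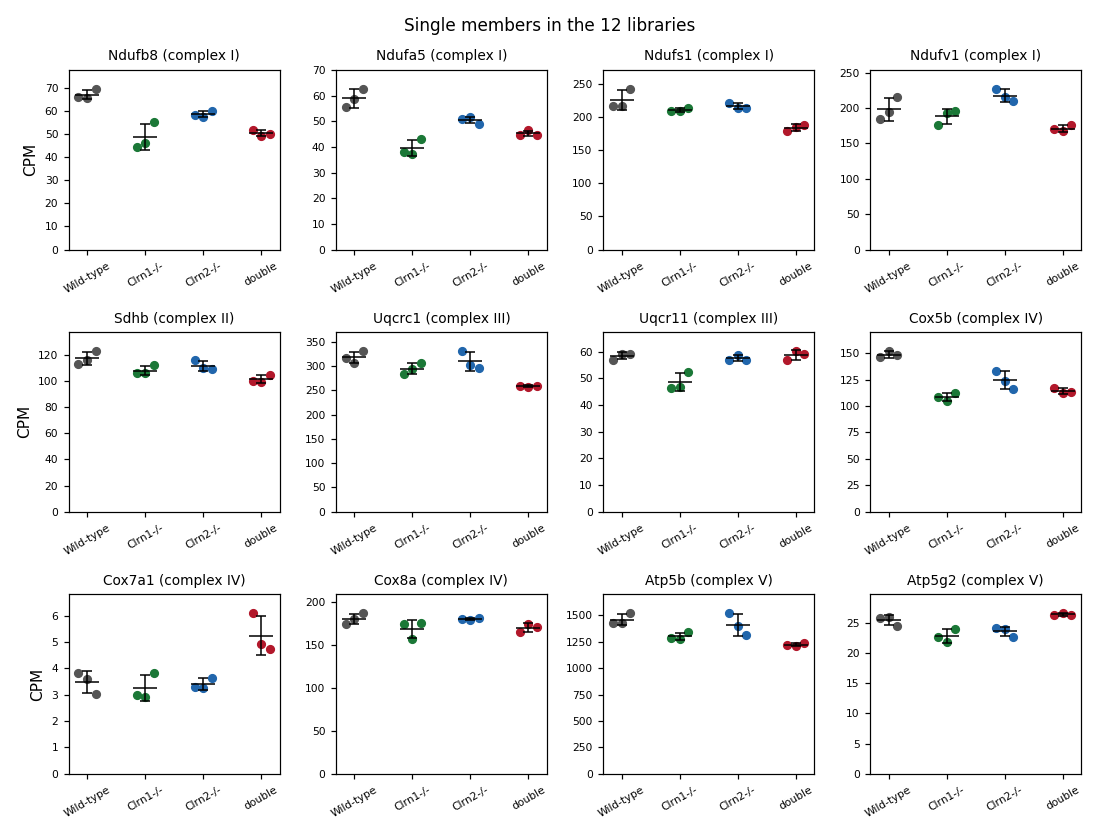
CPM of 12 members (vertical axes, from 0) in the 12 libraries by genotype, where double stands for Clrn1-/-Clrn2-/-; points are libraries, bars the mean and SD of 3. Ndufs1, Ndufv1, Sdhb and Uqcrc1 have their lowest mean in the double mutants, Ndufa5, Uqcr11 and Atp5g2 in Clrn1-/-, Cox5b is below wild-type in all 9 mutant libraries, and Cox7a1 is highest in the double mutants.

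In complex V, 14 of 16 tested members were lower in Clrn1-/-, 2 in Clrn2-/- and 11 in double mutants. Atp5b, the catalytic beta subunit and the member with the highest level, lay at 1430, 1430 and 1520 CPM in wild-type, 1290, 1280 and 1340 in Clrn1-/-, 1520, 1400 and 1310 in Clrn2-/- and 1220, 1210 and 1240 in double mutants. Atp5a1, the alpha subunit, lay at 1090, 1090 and 1160 CPM in wild-type, 951, 982 and 1010 in Clrn1-/-, 1070, 1020 and 983 in Clrn2-/- and 931, 927 and 958 in double mutants. For both, Clrn1-/- and double mutant libraries were below wild-type, with double mutants lower at the mean. Atp5b was lower, at -0.17 (SE 0.056, adjusted p = 0.0355) in Clrn1-/- and -0.26 (SE 0.056, adjusted p = 0.00163) in double mutants. Atp5a1 was lower, at -0.18 (SE 0.049, adjusted p = 0.0120) and -0.25 (SE 0.049, adjusted p = 9.0e-04). The Clrn1-/- call of Atp5b was lost on leaving out wild-type replicate 1 or 3, Clrn1-/- replicate 1 or 2, Clrn2-/- replicate 2 or any double mutant library (adjusted p = 0.0510 to 0.121), with library size alone (0.0725) and with the length trend removed (0.0839), and that of Atp5a1 without Clrn1-/- replicate 1 (0.0606).

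The ring of complex V that turns with the proton flow is made of 1 small protein encoded by 3 genes. Atp5g1 lay at 140, 139 and 157 CPM in wild-type, 118, 118 and 125 in Clrn1-/-, 146, 136 and 136 in Clrn2-/- and 119, 118 and 122 in double mutants. Atp5g2 lay at 25.8, 26.0 and 24.5 CPM in wild-type, 22.7, 21.8 and 24.0 in Clrn1-/-, 24.1, 24.0 and 22.7 in Clrn2-/- and 26.3, 26.6 and 26.3 in double mutants. Atp5g3, the most abundant per length, lay at 276, 289 and 321 CPM in wild-type, 278, 263 and 290 in Clrn1-/-, 321, 305 and 292 in Clrn2-/- and 270, 258 and 280 in double mutants. In double mutants, Atp5g1 was below wild-type without overlap, Atp5g2 stood just above the wild-type range, and Atp5g3 overlapped with it. Their fold changes there were -0.28 (SE 0.050, adjusted p = 3.7e-04), 0.05 (SE 0.054, adjusted p = 0.468) and -0.13 (SE 0.058, adjusted p = 0.0908). In Clrn1-/- they were -0.26 (SE 0.050, adjusted p = 9.8e-04), -0.16 (SE 0.054, adjusted p = 0.0443) and -0.09 (SE 0.058, adjusted p = 0.267). The Atp5g3 value in double mutants passed the test on leaving out wild-type replicate 1 (adjusted p = 0.0299). It also passed with upper quartile scaling (0.0358), no filter on low counts (0.0222) or the length trend removed (0.0352). The Clrn1-/- call of Atp5g2 was lost with the replicate block (adjusted p = 0.0579) and without wild-type replicate 1 or 2, Clrn1-/- replicate 1 or 2, Clrn2-/- replicate 2 or any double mutant library (0.0616 to 0.191). It was also lost with DESeq2 (0.0745), scaling by library size (-0.11, 0.141), every gene kept (0.126), the fit of both genotypes alone (0.0943) or the GC trend removed (0.0889), and with the length trend removed the value was -0.05 (0.558). Atp5e, the epsilon subunit, lay at 80.4, 83.5 and 94.7 CPM in wild-type, 80.6, 72.6 and 85.5 in Clrn1-/-, 86.9, 90.1 and 87.1 in Clrn2-/- and 88.7, 90.7 and 92.4 in double mutants. Its genotypes overlapped with wild-type, with -0.12 (SE 0.062, adjusted p = 0.185) in Clrn1-/- and 0.07 (SE 0.061, adjusted p = 0.393) in double mutants.

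The members lower in the mutants were shared in part, and a call in 1 mutant and not in another does not test the difference between them. Of the 79 members, 40 were lower in both Clrn1-/- and double mutants, 18 in Clrn1-/- and not in double mutants, and 11 in double mutants and not in Clrn1-/-. Among all genes tested, 13.3% were lower in Clrn1-/- and 17.9% in double mutants, and the overlap of those calls was not counted. The 11 were Ndufa8, Ndufa9, Ndufb2, Ndufs1, Ndufs8, Ndufv1, Sdha, Sdhb, Sdhd, Uqcrc1 and Uqcrfs1. The 18 were Ndufa1, Ndufa2, Ndufa3, Ndufa7, Ndufa13, Ndufb3, Ndufb11, Ndufs5, Ndufs6, Ndufv3, Sdhc, Uqcrb, Uqcr11, Cox7a2, Cox7c, Atp5g2, Atp5j and Atp5k. All 16 members lower in Clrn2-/- were also lower in Clrn1-/-, and 13 members were lower in all 3 mutants, namely Cox5b, Cox6a1, Cox6b1, Cox7b, Ndufa4, Ndufa5, Ndufa10, Ndufa11, Ndufa12, Ndufb8, Ndufb9, Ndufv2 and Atp5j2. The mean of a member was lowest in Clrn1-/- for 54 members and in double mutants for 25, and highest in wild-type for 59. This tally was not made over all genes, so it is not shown to be particular to the members.

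Compared directly, double mutants had 26 members higher and 4 lower than Clrn1-/-, where 15.7% and 14.6% of all genes were called. The median was 0.06. With the trend of each library on transcript length removed, the direction turned, to 7 members higher and 16 lower and a median of -0.03. The 4 lower were Ndufs1, Uqcrc1, Ndufa9 and Uqcrfs1, and 24 of the 26 higher were members lower in Clrn1-/- against wild-type. Both comparisons use the Clrn1-/- libraries, so low values there favour both calls at once and this overlap is in part built in. The count of 26 fell to 13 without Clrn1-/- replicate 2 and to 17 without double mutant replicate 2, and that of 4 to 2 without Clrn1-/- replicate 3 or double mutant replicate 1. Against Clrn2-/-, double mutants had 28 members lower and 4 higher (13.2% and 14.4% of all genes), with a median of -0.12. Ndufv1 led the 28, at -0.35 (SE 0.057, adjusted p = 3.5e-04), and the 4 higher were Cox7a1, Ndufa1, Ndufa3 and Atp5g2. Without double mutant replicate 1 the count of 28 was 18, and the count of 4 was 1 or 2 without any 1 of 9 libraries, namely each Clrn2-/- and double mutant library, Clrn1-/- replicates 1 and 2 and wild-type replicate 2. Clrn1-/- had 42 members lower and 0 higher than Clrn2-/- (8.99% and 9.51% of all genes), with a median of -0.17 and 22 lower without Clrn1-/- replicate 2 and 14 with the length trend removed.

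The interaction asks whether the double mutant differs from the sum of both single mutants on the log2 scale. It was above 0 for 31 members and below 0 for 1, where 9.32% and 8.06% of all genes were called, with a median of 0.14. The 31 included Cox6a1, at 0.43 (SE 0.065, adjusted p = 3.1e-04), Ndufa5, at 0.42 (SE 0.082, adjusted p = 0.00247), and Cox5b, at 0.33 (SE 0.067, adjusted p = 0.00353). For these the 2 single mutants were both below wild-type, and the double mutant was lower than wild-type by less than the sum of both. The 1 below 0 was Ndufv1, at -0.28 (SE 0.081, adjusted p = 0.0260), and that call was lost on leaving out wild-type replicate 1, Clrn2-/- replicate 1 or double mutant replicate 2 (adjusted p = 0.0521 to 0.0524). The count of 31 was 20 without Clrn1-/- replicate 2, and the median 0.09 without it or without Clrn2-/- replicate 3 and 0.10 without wild-type replicate 3. With the length trend removed, 20 were above 0 and 4 below, with a median of 0.05.

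The members have short transcripts, and their fold changes varied with transcript length and with level. The median length was 755 bases over the members tested and 2687 bases over all genes tested with a length, and 64.6% of members and 11.9% of all genes were under 1000 bases. Across the 79 members, Spearman's correlation of the log2 fold change with length was 0.37 in Clrn1-/-, 0.18 in Clrn2-/- and -0.38 in double mutants against wild-type, and -0.69 for double mutants against Clrn1-/-. Over 18834 genes it was 0.16, -0.06, -0.00 and -0.15. With the level of the gene, the correlations over the members were 0.28, 0.17, -0.41 and -0.63, and over all genes 0.02, 0.05, -0.03 and -0.06. The 14 members with a mean of at least 200 CPM had medians of -0.17 in Clrn1-/- and -0.25 in double mutants against wild-type, with 10 and 13 lower. These are correlations across genes of the same libraries, and genes are not independent replicates. Of 51 members under 1000 bases, 41 were lower in Clrn1-/- (median -0.28) and 28 in double mutants (-0.17). Of 28 longer members, 17 were lower in Clrn1-/- (-0.17) and 23 in double mutants (-0.22). Among all genes tested, 403 of 2240 under 1000 bases were lower in Clrn1-/- (median -0.09) and 237 in double mutants (0.02). Of 16594 longer genes, 2109 were lower in Clrn1-/- (0.01) and 3156 in double mutants (-0.00). The share of all genes called lower thus also varied with length, in opposite directions in these mutants.

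**Figure D5:**
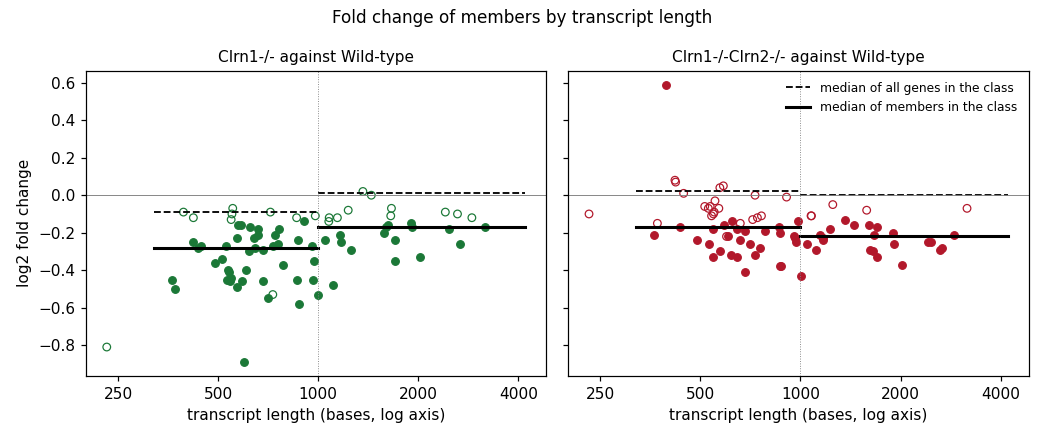
Log2 fold change of each member (vertical axis) against its transcript length in bases (horizontal log axis), in Clrn1-/- (left) and double mutants (right) against wild-type. Filled points passed an adjusted p of at most 0.05, solid lines are medians of members and dashed lines medians of all genes on either side of 1000 bases; in Clrn1-/- the short members lie lower (-0.28) than the long ones (-0.17), and in double mutants the order is the reverse (-0.17 and -0.22).

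With the trend of each library on transcript length removed, Clrn1-/- had 44 of its 58 members lower as before, and the median was -0.16. The 51 in double mutants all stayed lower.

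Other genes of energy metabolism were listed beside the members. Of all genes tested, 13.3%, 7.07% and 17.9% were lower in Clrn1-/-, Clrn2-/- and double mutants, and 13.6%, 7.14% and 19.1% were higher. Of 7 tested electron carriers and related subunits, 4 were lower and 0 higher in Clrn1-/- and the same counts held in double mutants. Cyc1, the cytochrome c1 of complex III, lay at 221, 222 and 251 CPM in wild-type, 185, 186 and 202 in Clrn1-/-, 221, 203 and 213 in Clrn2-/- and 185, 180 and 181 in double mutants. Clrn1-/- and double mutant libraries were below wild-type, with fold changes of -0.27 (SE 0.054, adjusted p = 0.00140) and -0.34 (SE 0.054, adjusted p = 1.0e-04). Cytochrome c (Cycs) was lower, at -0.18 (SE 0.049, adjusted p = 0.0120) and -0.21 (SE 0.049, adjusted p = 0.00315), and Ndufab1, the acyl carrier protein of complex I, at -0.32 (SE 0.041, adjusted p = 3.8e-05), -0.30 (SE 0.041, adjusted p = 1.9e-04) and -0.46 (SE 0.042, adjusted p = 4.6e-07) in Clrn1-/-, Clrn2-/- and double mutants. Enzymes of the tricarboxylic acid cycle were lower for 9 of 18 in Clrn1-/-, 4 in Clrn2-/- and 15 in double mutants, with 0, 0 and 2 higher, and those of glycolysis for 10, 6 and 14 of 17, with 1, 1 and 2 higher.

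Assembly factors help to build the complexes and are not part of them. In double mutants, 7 of 16 factors of complex I, 1 of 4 of complex II, 3 of 6 of complex III, 5 of 22 of complex IV and 1 of 4 of complex V were lower, and 1 factor of complex V was higher. In Clrn1-/- the counts lower were 5, 0, 2, 7 and 2, with 2 higher for complex IV. Mitochondrial ribosomal protein genes were lower for 25 of 77 in Clrn1-/- and 25 in double mutants, with 1 and 2 higher. Genes of mitochondrial genome expression were lower for 2 of 15 and 5 of 15, with 1 higher in each. Among all genes tested, 13.3% were lower in Clrn1-/- and 17.9% in double mutants. The 2 of 15 in Clrn1-/- and the 5 of 22 of complex IV in double mutants lie near these shares. Cytosolic ribosomal protein genes were lower for 33 and higher for 9 of 84 in Clrn1-/-, and lower for 2 and higher for 48 in double mutants.

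Regulators of mitochondrial biogenesis had 2 of 16 lower and 1 higher in Clrn1-/-, 3 and 0 in Clrn2-/-, and 6 and 5 in double mutants. Of all genes, 13.3%, 7.07% and 17.9% were lower in the same order of mutants, and 13.6%, 7.14% and 19.1% were higher. Ppargc1a, the coactivator PGC-1 alpha, lay at 154, 153 and 165 CPM in wild-type, 149, 146 and 148 in Clrn1-/-, 137, 137 and 132 in Clrn2-/- and 115, 116 and 121 in double mutants. All 9 mutant libraries were below wild-type, with double mutants lowest, at -0.21 (SE 0.039, adjusted p = 0.00170) in Clrn2-/- and -0.42 (SE 0.040, adjusted p = 6.7e-07) in double mutants, beside -0.09 (SE 0.039, adjusted p = 0.107) in Clrn1-/-. Its nuclear receptor partner Esrra was lower in double mutants, at -0.33 (SE 0.059, adjusted p = 3.2e-04), and its value in Clrn1-/- was -0.14 (SE 0.058, adjusted p = 0.0925). Nrf1 had 0.13 (SE 0.067, adjusted p = 0.131) in double mutants and 0.15 (SE 0.066, adjusted p = 0.121) in Clrn1-/-, Gabpa was higher in double mutants, at 0.31 (SE 0.077, adjusted p = 0.00452), and Tfam, which packs mitochondrial DNA, had -0.09 (SE 0.048, adjusted p = 0.175) there.

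Marker lists of cell types differed in direction. Among all genes, 13.3%, 7.07% and 17.9% were lower in Clrn1-/-, Clrn2-/- and double mutants, and 13.6%, 7.14% and 19.1% higher. Of 15 neuron markers, 7 were lower and 0 higher in Clrn1-/-, 4 and 1 in Clrn2-/-, and 11 and 2 in double mutants, and their summed level was 13100 to 14500 CPM in wild-type, 11700 to 12300 in Clrn1-/-, 11400 to 13200 in Clrn2-/- and 9140 to 9310 in double mutants. Myelinating glia markers summed to 21900 to 23500, 21400 to 22500, 21900 to 23300 and 21100 to 22400 CPM, with 1, 0 and 2 of 10 lower and 4, 1 and 3 higher in Clrn1-/-, Clrn2-/- and double mutants. Hair cell markers summed to 356 to 403 CPM in wild-type and 506 to 538 CPM in double mutants, where 6 of 10 were higher, and supporting cell markers to 2140 to 2380 and 3310 to 3540 CPM, where 9 of 12 were higher and 1 lower. Hair cell markers had 2 lower and 2 higher in Clrn1-/- and 0 and 4 in Clrn2-/-, and supporting cell markers 3 and 6, and 2 and 6. Fibroblast and mesenchyme markers summed to 8180 to 10100 CPM in wild-type, 6200 to 6800 in Clrn1-/-, 6060 to 6500 in Clrn2-/- and 8370 to 9700 in double mutants. Of these 8 markers, 2, 2 and 1 were lower and 4, 1 and 5 higher in the 3 mutants. The 6 red blood cell markers summed to 708 to 1160 CPM in wild-type, 285 to 387 in Clrn1-/-, 435 to 654 in Clrn2-/- and 544 to 733 in double mutants, with 6, 5 and 5 lower. All 7 macrophage markers were higher in double mutants and 6 of them in Clrn1-/-. None of these markers was at 0 in a genotype, and their part in the members' results was not tested.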

How the data were processed

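Poly-A RNA of organs of Corti was sequenced by the authors from stranded libraries, with paired reads that they aligned with STAR (version not given in the sources used here) to GRCm38.p6 with Gencode annotation. The deposited tables hold raw counts per gene, unstranded and for each strand, and the reverse-strand column was used here, with no per-sample column left out. It held 95.2% to 95.6% of stranded counts, and 13.5% to 15.8% of each table's counts belonged to no gene and stayed out of library sizes. A count shared with a near-identical copy cannot be assigned from these tables.

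Genes were kept by filterByExpr in edgeR 4.0.16 (minimum count 10) under R 4.3.3. Library sizes were scaled by TMM, and 1 quasi-likelihood model over the 4 genotypes gave all log2 fold changes, standard errors and two-sided p-values, adjusted by Benjamini-Hochberg over 19052 genes. The common coefficient of variation between libraries was 6.15%. The threshold for a call was an adjusted p of 0.05. The authors' FPKM filter of at least 0.1 was run with limma-voom (limma 3.58.1) as an alternative, without a fold minimum. Their 1.5-fold minimum was applied to the main edgeR fit, so their own combination was not run. Other alternatives were DESeq2 1.42.0, other scalings, no filter, 2 genotypes alone, unstranded counts, a replicate block, removal of trends on transcript length or GC content, and leaving out each library. The code was tested on simulated data. Lengths were those of the Gencode annotation of the same build, and promoters came from RefSeq.

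Members and gene lists were chosen with earlier results of these data known. The members given in every library are the 2 lowest and the 1 highest of each complex by fold change in double mutants against wild-type, those past 1.5-fold in any comparison of 2 genotypes, the isoform sets, and core subunits fixed by name. The values of 1 member chosen in this way are not reported here. Same-numbered libraries deviated together for Clrn1-/- and wild-type (correlations of 0.291, 0.134 and 0.111 over 12453 genes). For Clrn1-/- and Clrn2-/- the correlations were also above 0 at every number but smaller (0.046, 0.029 and 0.090). Every other pair of genotypes had a negative correlation at some number. The blocked value therefore stands beside Clrn1-/- results where it changed a call.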

Additional observations from a re-analysis of the deposited data

Results flagged for a closer look

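For 31 members the log2 difference between double mutants and Clrn2-/- was higher than that between Clrn1-/- and wild-type, and for 1 it was lower, by the interaction term of the same model. The members with values in every library were Ndufa5 (0.42) and Ndufa1 (0.46) of complex I, Uqcrq (0.27) and Uqcr11 (0.30) of complex III, Cox7b (0.41), Cox5b (0.33), Cox6a1 (0.43) and Ndufa4 (0.37) of complex IV, and Atp5g2 (0.32) of complex V. Ndufv2 stood at 0.23 and Ndufv1 at -0.28. Cox7a1 stood at 0.71 and Cox4i2 at 0.84, both at low levels. The value of Ndufs5 was 0.69 in its own row and -0.04 when counted with Ndufs5-ps. Calls of Uqcrq, Cox7a1, Cox4i2, Ndufv1 and Ndufv2 were lost on leaving out 1 library, and those of Uqcr11 and Atp5g2 under another alternative.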

How the results depend on the processing

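Of 536 recomputed summaries of the members (21 summaries, 26 alternatives), 480 kept their direction and stayed within 1.5 times the count, or within 0.046 of a median (the pooled SD between libraries), and 1 turned sign. With the 1.5-fold minimum, 1 member was lower in Clrn1-/-, 0 in Clrn2-/- and 0 in double mutants against wild-type. Double mutants then had 0 lower and 2 higher than Clrn1-/-, and 0 lower and 1 higher than Clrn2-/-. Clrn1-/- had 1 lower than Clrn2-/-, and the interaction 0 below and 3 above 0. With the length trend removed, the medians were -0.16 for Clrn1-/- against wild-type, -0.03 for double mutants against Clrn1-/- (turned from 0.06), -0.08 for Clrn1-/- against Clrn2-/- and 0.05 for the interaction. The counts were then 16 lower and 7 higher for double mutants against Clrn1-/-, 2 higher against Clrn2-/-, 14 lower for Clrn1-/- against Clrn2-/-, and 4 below and 20 above 0 for the interaction. Cox8a in double mutants against Clrn1-/- turned to -0.13. With 2 genotypes fitted alone, 10 members were lower in Clrn2-/- and 7 in double mutants against Clrn1-/-. With library size alone, 1 was higher in Clrn2-/- and 6 had an interaction below 0, which was 2 with upper quartile scaling and 2 without the filter, where 2 were higher in double mutants than in Clrn2-/-. With limma-voom and the FPKM filter, 2 were higher in double mutants. Counting Ndufs5 with Ndufs5-ps, chosen after seeing the data, turned its difference between double mutants and Clrn1-/- to -0.04 and its interaction to -0.04. Removing a GC trend and taking Atp5o from a second row of that name, also chosen after seeing the data, turned no direction. Beyond what is given here, the cause was not tested.

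Leaving out 1 library at a time gave 43 to 64 members lower in Clrn1-/-, 5 to 15 in Clrn2-/- (0 to 1 higher) and 40 to 55 in double mutants (1 to 1 higher) against wild-type. Double mutants had 2 to 6 lower and 13 to 29 higher than Clrn1-/-, and 18 to 40 lower and 1 to 4 higher than Clrn2-/-. Clrn1-/- had 22 to 52 lower than Clrn2-/-. The interaction was below 0 for 0 to 5 and above 0 for 20 to 30, with medians of 0.09 to 0.16. With the replicate block, 59, 17 and 54 members were lower in Clrn1-/-, Clrn2-/- and double mutants, of which 57, 15 and 51 were lower without it. The block also brought Cox7a2 (adjusted p = 0.0447) and Cox7a2l (0.0486) below the threshold in double mutants, Cox4i2 (0.0485) in double mutants against Clrn1-/-, Ndufa5 (0.0491) in double mutants against Clrn2-/- and Ndufb8 (0.0466) in the interaction. It changed no other call of a member with values given above, save those beside the Clrn1-/- results.

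With 3 libraries a genotype, the median standard error of a member was 0.053 on the log2 scale in Clrn1-/- against wild-type, and a member that missed the threshold is not shown to be unchanged. Wild-type mice came from other breedings, mitochondrially encoded subunits were not analysed here, and RNA levels say nothing of protein or of complex assembly.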

Other observations

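Cox8b, the heart and skeletal muscle form of a complex IV subunit, lies outside the member rule and was named after its values were seen. It lay at 18.3, 21.0 and 20.8 CPM in wild-type, 6.92, 4.81 and 6.54 in Clrn1-/-, 8.04, 6.42 and 5.62 in Clrn2-/- and 3.83, 5.44 and 4.20 in double mutants. All 9 mutant libraries were below wild-type, and the double mutants overlapped with Clrn1-/- and not with Clrn2-/-. The log2 fold changes were -1.72 (SE 0.145, adjusted p = 5.5e-07), -1.58 (SE 0.144, adjusted p = 5.1e-06) and -2.16 (SE 0.151, adjusted p = 2.8e-08) in Clrn1-/-, Clrn2-/- and double mutants. Markers of skeletal muscle summed to 544 to 629 CPM in wild-type, 483 to 541 in Clrn1-/-, 521 to 569 in Clrn2-/- and 387 to 412 in double mutants. The list holds Pvalb, which is also found in auditory neurons and inner hair cells, so its sum does not measure muscle alone. The part of these markers in the result was not tested.

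Atp5o, a subunit of the stalk of complex V, had no count in the row that the rule matched. A second row of the same gene name lay at 26.8, 29.4 and 27.3 CPM in wild-type, 19.7, 17.1 and 18.7 in Clrn1-/-, 21.2, 23.6 and 17.6 in Clrn2-/- and 23.5, 25.6 and 25.4 in double mutants, with log2 fold changes of -0.59, -0.42 and -0.17. All mutant libraries were below wild-type.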
